A study of Mus musculus with 12 samples.

Results

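The genes described here are 34 endoplasmic reticulum (ER) stress and chaperone genes of the mouse, taken by symbol from a read count table of 25238 genes. All 34 symbols of the list were found in the table. The rule that took them used symbols and no expression value, but the list was chosen with earlier results of these data known. The study examined cortex after stroke in mice given ISP (intracellular sigma peptide), a membrane-permeable peptide that mimics part of PTPσ, a receptor phosphatase for chondroitin sulfate proteoglycans. Poly(A)-selected RNA of punched peri-infarct cortex was sequenced in 12 libraries, 4 in each group. The ISP group (libraries 12, 14, 16 and 18) had transient occlusion of the middle cerebral artery and received ISP at 1 µg per g per day from day 1, with harvest at day 14. The Veh group (libraries 2, 6, 8 and 10) had the same occlusion and harvest day and is labelled as receiving vehicle, 5% DMSO in saline, whereas the account of the experiment in the study's text names a scrambled peptide, so the group is called Veh here. The control group (libraries 19, 21, 36 and 38) carries the same tissue label, and no source used here gives its surgery, treatment or day. The stroke methods describe 45 min of occlusion at an age of 10 to 12 weeks in male mice, either C57BL/6J or a Nestin-creER-Ai9 reporter line, without saying which of these was sequenced. The labels do not say that the control libraries came from separate mice, so the p-values measure the spread between these libraries.

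Proteins that enter the secretory pathway fold in the ER with the help of chaperones, co-chaperones and disulfide isomerases, and those that fail are returned to the cytosol and degraded. When unfolded proteins accumulate, the sensors Ern1 (IRE1), Eif2ak3 (PERK) and Atf6 start the unfolded protein response: Ern1 splices Xbp1 mRNA, Atf6 is cleaved to a transcription factor, and Eif2ak3 phosphorylates eIF2α, which lowers general translation and favours Atf4. Xbp1 and Atf6 raise chaperone and degradation genes, while Atf4 and Ddit3 (CHOP) raise genes of amino acid supply and cell death, and in brain tissue after ischemia these branches are well known to be engaged. Gene counts measure neither Xbp1 splicing, nor Atf6 cleavage, nor eIF2α phosphorylation.

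The promoter element through which Atf6 and Xbp1 act on chaperone genes is shown first, because it is the sequence that ties these regulators to the chaperone genes of the list. RefSeq promoter windows (GRCm38.p6, 250 bases before to 50 bases after the start) were present for 30 of the 34 genes, the exceptions being Hyou1, Manf, Derl1 and Atf6. Both strands were searched for the ER stress element, which is CCAAT and CCACG separated by 9 bases of any kind, and for the second ER stress element, which is ATTGG and CCACG separated by 1 base. Each match contains the CCACG core, which alone was in the windows of 24 of the 30 genes and of 35.5% of all genes. The ER stress element was in the windows of 8 of the 30 genes (26.7%), against 37 of 27025 genes in all (0.137%), and Hsp90b1 had 2 copies. The second element was in 2 of the 30, against 12 genes in all (0.0444%). The matches are given 5′ to 3′ on the strand that holds them, with the letters that were searched in capitals and the spacer in lower case.
Hspa5: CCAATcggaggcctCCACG
Hsp90b1, copy nearer the start: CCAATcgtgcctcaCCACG
Hsp90b1, copy farther from the start: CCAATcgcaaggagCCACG
Calr: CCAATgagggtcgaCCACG
Canx: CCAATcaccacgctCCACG
Dnajc3: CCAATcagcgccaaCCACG
Creld2: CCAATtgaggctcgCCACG
Pdia6: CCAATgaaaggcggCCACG
Syvn1: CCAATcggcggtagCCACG
Dnajb11, second element: ATTGGcCCACG
Herpud1, second element: ATTGGgCCACG
The Hspa5 window is given whole because Hspa5 had the largest ratio of library ISP 16 to the other ISP libraries among the 34 genes. It lies at chr2:34771840-34772139 on the plus strand, with the element in capitals 65 bases before the start.
Hspa5 promoter: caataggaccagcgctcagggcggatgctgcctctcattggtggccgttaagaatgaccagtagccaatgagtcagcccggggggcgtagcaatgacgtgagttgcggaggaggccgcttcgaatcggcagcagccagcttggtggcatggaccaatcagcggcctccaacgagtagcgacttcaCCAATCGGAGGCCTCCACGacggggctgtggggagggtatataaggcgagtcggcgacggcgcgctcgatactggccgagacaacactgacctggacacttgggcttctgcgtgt
The core TGACGTG of the unfolded protein response element was found in this window and in those of no other gene of the 30, against 2.22% of all genes. The amino acid response core, TGATG and AAT separated by 1 base and searched because Atf4 acts through such sites, was in none of the 30 windows and in 1.08% of all genes. With the last base left free (TGATG and AA separated by 1 base), a wider search added after the windows had been seen, it was in 4 of the 30 (13.3%; Trib3, Chac1, Asns and Herpud1), against 4.51% of all genes. A match is a description of these letters, not evidence of binding.

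Total counts ran from 19325979 to 28685864 in ISP, 17442711 to 24706638 in Veh and 21322702 to 29845629 in control libraries, and these totals limit the precision for the lowest genes. The summed level of 10 cortical excitatory neuron markers was 5111 to 6114 CPM (read counts scaled to a common library total) in ISP, 5814 to 7189 in Veh and 5965 to 6613 in control libraries. Marker lists of glia differed between libraries within a group. The summed level of 8 reactive astrocyte markers was 1772 and 2976 CPM in ISP 14 and ISP 18, 644 and 386 CPM in ISP 12 and ISP 16, 199 to 796 CPM in Veh and 90.6 to 116 CPM in control libraries. The 10 markers of activated microglia and macrophages summed to 401 and 390 CPM in ISP 14 and ISP 18, 38.3 and 27.0 CPM in ISP 12 and ISP 16, 26.7 to 86.7 CPM in Veh and 23.0 to 25.5 CPM in control libraries. Choroid plexus and ependyma markers summed to 1164 CPM in ISP 18 and 1670 CPM in Veh 6, against at most 11.3 CPM in the other 10 libraries. The 8 oligodendrocyte markers summed to 4810 to 11588 CPM in ISP, 2877 to 7162 CPM in Veh and 3362 to 5060 CPM in control libraries. T cell, plasma and B cell, and neutrophil markers summed to 2.42 CPM or less in every library, and 1 neutrophil marker was at 0 in all 12. In bulk tissue, fewer cells of a type and less RNA per cell cannot be told apart.

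All 34 genes were detected in every library, over a wide range of levels. Levels between genes are given as CPM per kb of annotated exon, averaged over the 12 libraries. Calr (calreticulin, a lectin chaperone that holds calcium in the lumen) had the highest level, 153 CPM per kb. Below it, Os9 (a lectin of ER-associated degradation), Pdia3, Atf4, Hsp90b1 and Canx lay between 65.6 and 74.0 CPM per kb, and the first 4 of these differed by less than the SDs within the groups. Hspa5 (BiP, the ER Hsp70) followed at 60.1 CPM per kb. In all, 25 of the 34 genes averaged over 10 CPM per kb. The stress sensors spread widely, with Atf6 at 12.7, Eif2ak3 at 4.70 and Ern1 at 0.485 CPM per kb. Trib3, a pseudokinase that is a classical Atf4 and Ddit3 target, was lowest at 0.324 CPM per kb, with 0.237 to 1.48 CPM in single libraries.

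**Figure D1:**
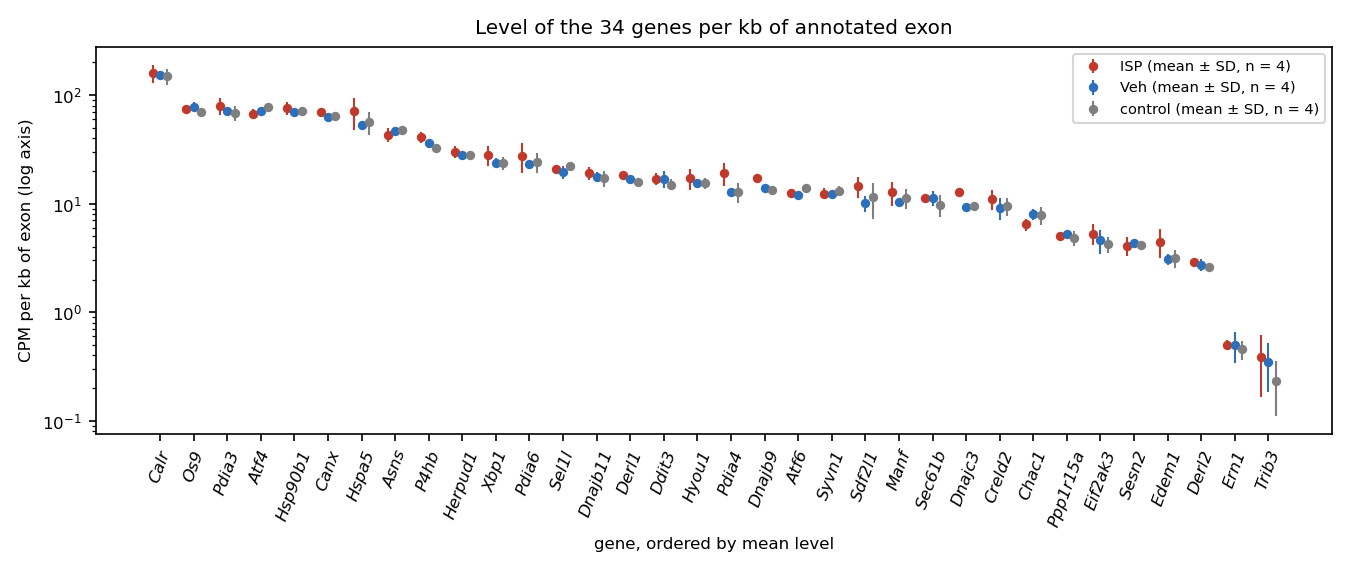
CPM per kb of annotated exon (log axis) of the 34 genes, ordered by their mean over 12 libraries, with the mean and SD of 4 libraries for ISP, Veh and control. Calr is highest at 153 CPM per kb and Trib3 lowest at 0.324, with 25 of the 34 genes above 10 CPM per kb.

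Library ISP 16, and more weakly control 19, stood apart from the other libraries of their groups in the chaperone genes. Of the 34 genes, 13 (38.2%) had their highest level of all 12 libraries in ISP 16, against 7.12% of 14943 genes tested in all 3 comparisons. ISP 14 was raised as well, and was highest of the 12 for 6 of the 34 (17.6%, against 9.41%). The mean log2 level of the 34 genes, centred on each gene's mean, was 0.25 in ISP 16, 0.17 in ISP 14 and 0.08 in control 19. In the other libraries this mean was -0.11 to 0.02. Within the control group, control 19 was highest for 19 of the 34 genes (55.9%), against 29.1% of all these genes. Within the ISP group, ISP 16 was highest for 17 of the 34 genes (50%), against 27.3% of all these genes. In both libraries this involved the folding machinery of the ER. Of 15 chaperones, co-chaperones and disulfide isomerases, 11 were highest in ISP 16 within its group and 11 in control 19 within its group. The shares of all genes were 27.3% and 29.1%, as above.

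Hspa5 had the largest ratio of ISP 16 to the rest of its group. It measured 221, 301, 440 and 242 CPM in ISP 12, 14, 16 and 18, 237, 195, 226 and 238 CPM in Veh 2, 6, 8 and 10, and 323, 199, 202 and 227 CPM in control 19, 21, 36 and 38. ISP 16 was 1.73 times the mean of the other ISP libraries, and control 19 was 1.54 times the mean of the other control libraries. Pdia6, a disulfide isomerase, had ratios of 1.69 in ISP 16 and 1.45 in control 19. Manf, an ER stress-inducible secreted protein that binds Hspa5, had ratios of 1.46 in both. Sdf2l1, a luminal partner of the co-chaperone Dnajb11, had 1.41 in ISP 16 and 1.89 in control 19.

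Hsp90b1 (GRP94, the ER Hsp90) moved less. It measured 280, 309, 366 and 273 CPM in ISP 12, 14, 16 and 18, 269, 271, 297 and 283 CPM in Veh 2, 6, 8 and 10, and 317, 288, 251 and 289 CPM in control 19, 21, 36 and 38. The order was the same, with ISP 16 highest of all and control 19 highest of the controls, but the ratios were 1.27 and 1.15.

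Xbp1, the transcription factor whose mRNA Ern1 splices, followed the chaperones. It measured 86.3, 85.1, 120 and 76.0 CPM in ISP 12, 14, 16 and 18, 88.3, 71.4, 75.9 and 71.1 CPM in Veh 2, 6, 8 and 10, and 91.6, 72.2, 71.4 and 71.7 CPM in control 19, 21, 36 and 38. ISP 16 lay above every other library and control 19 came next. Atf4 too was highest of its group in ISP 16 and in control 19, with ratios of 1.19 and 1.11. Ddit3 had ratios of 1.02 and 1.20 and was highest of its group in control 19 only. In none of the 5 genes downstream of Atf4 and Ddit3 was ISP 16 the highest ISP library, against 27.3% of all genes. In 1 of the 5 (Chac1, which degrades glutathione) control 19 was the highest control library, against 29.1% of all genes.

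Beside this pattern, the mean centred log2 level of 22 cytosolic heat shock chaperones was 0.22 in ISP 16 and 0.15 in control 19, against -0.13 to 0.06 in the other 10 libraries. Within the ISP group, ISP 16 had the lowest sums for reactive astrocyte (386 CPM), activated microglia (27.0 CPM) and oligodendrocyte markers (4810 CPM). It had the highest sum for excitatory neuron markers (6114 CPM). In control 19 these sums were, in the same order, 116, 25.1, 3694 and 6403 CPM. By the mean centred log2 level of the 10 excitatory neuron markers, ISP 16 was again highest of its group (0.09). Control 19 was lowest of its group by that measure (-0.07, against 0.08 to 0.17). Over 33 further ER folding enzymes the mean centred level was 0.02 in ISP 16 and 0.01 in control 19. The total counts were 20801335 in ISP 16 and 29845629 in control 19, within the range of the others for ISP 16 and the highest for control 19. What set these 2 libraries apart was not tested.

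**Figure D2:**
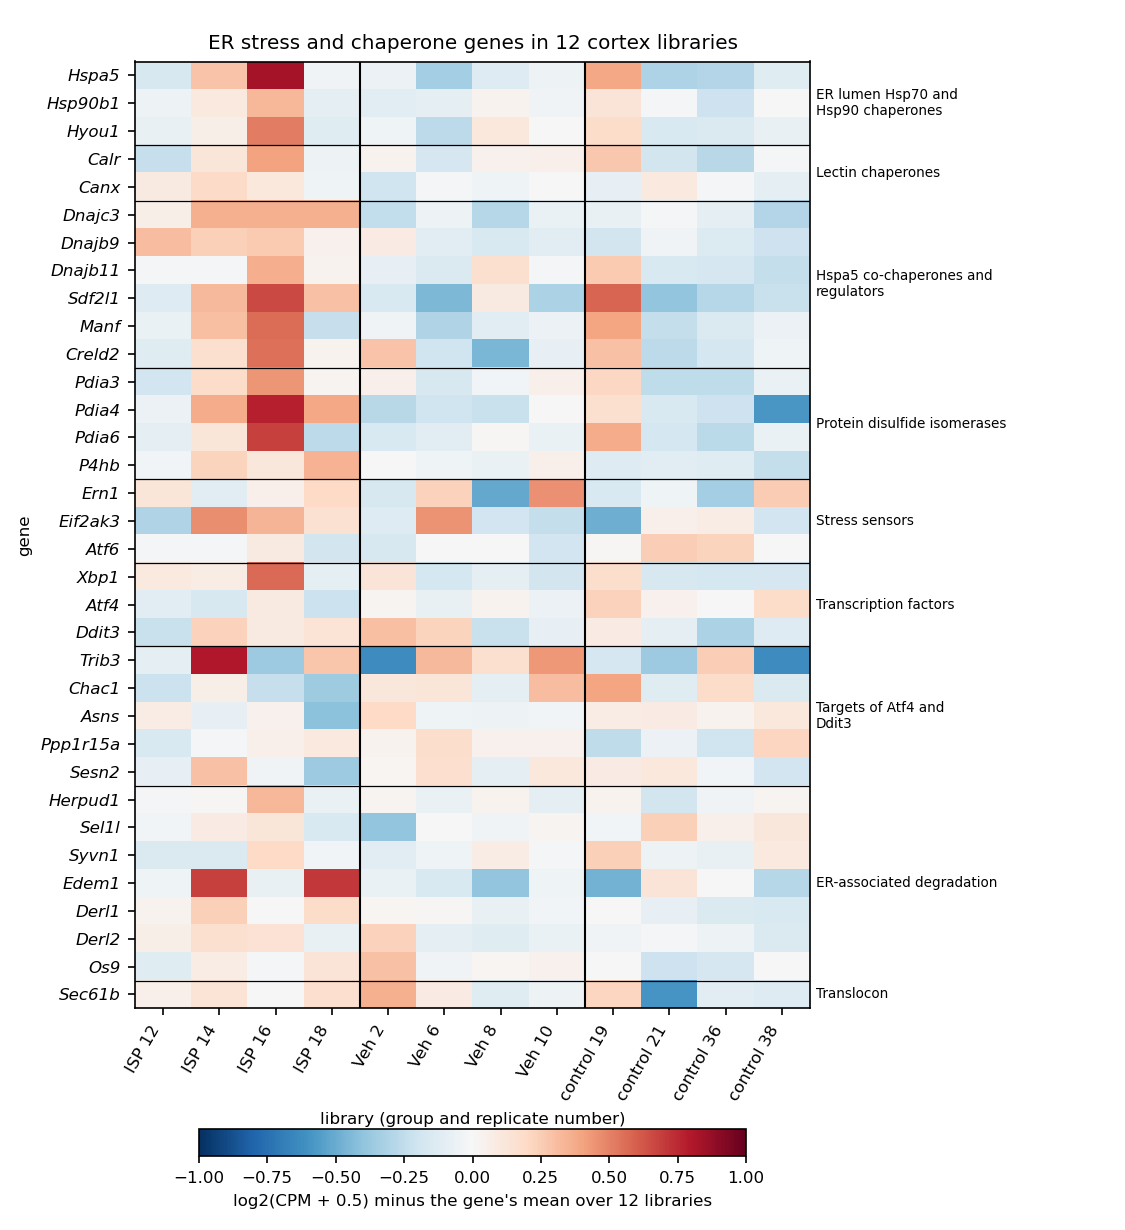
Each row is 1 of the 34 genes, grouped by role, and each column 1 library, ISP left, Veh in the middle and control right. Colour gives log2(CPM + 0.5) minus the gene's mean over the 12 libraries, and the ISP 16 column is red for the chaperones and disulfide isomerases at the top, with control 19 paler, while Edem1 is red in ISP 14 and ISP 18.

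The promoter windows were set beside the ISP 16 and control 19 pattern. In ISP 16 the ratio of the 10 genes with either ER stress element to the other ISP libraries had a median of 1.28 (1.02 to 1.73), against a median of 1.05 (0.40 to 1.46) for the 20 genes whose window held neither element. In control 19 the medians were 1.26 with an element and 1.07 without. ISP 16 was the highest ISP library for 8 of the 10 genes and 6 of the 20, against 27.3% of 14943 genes. The split follows the role of the genes, since 8 of the 10 with an element and 5 of the 20 without are chaperones, co-chaperones or disulfide isomerases. Within these roles the medians lay close together: in ISP 16 the ratio was 1.33 for the 8 genes with an element and 1.34 for the 5 without, and in control 19 it was 1.35 with and 1.32 without. The ranges overlapped: Sdf2l1, Pdia4 and Xbp1 had no element and ratios of 1.41, 1.45 and 1.46 in ISP 16, whereas Canx and Dnajc3 had an element and ratios of 1.02 and 1.06. Genes of 1 library are not independent of each other, so the split is a description and carries no test.

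**Figure D3:**
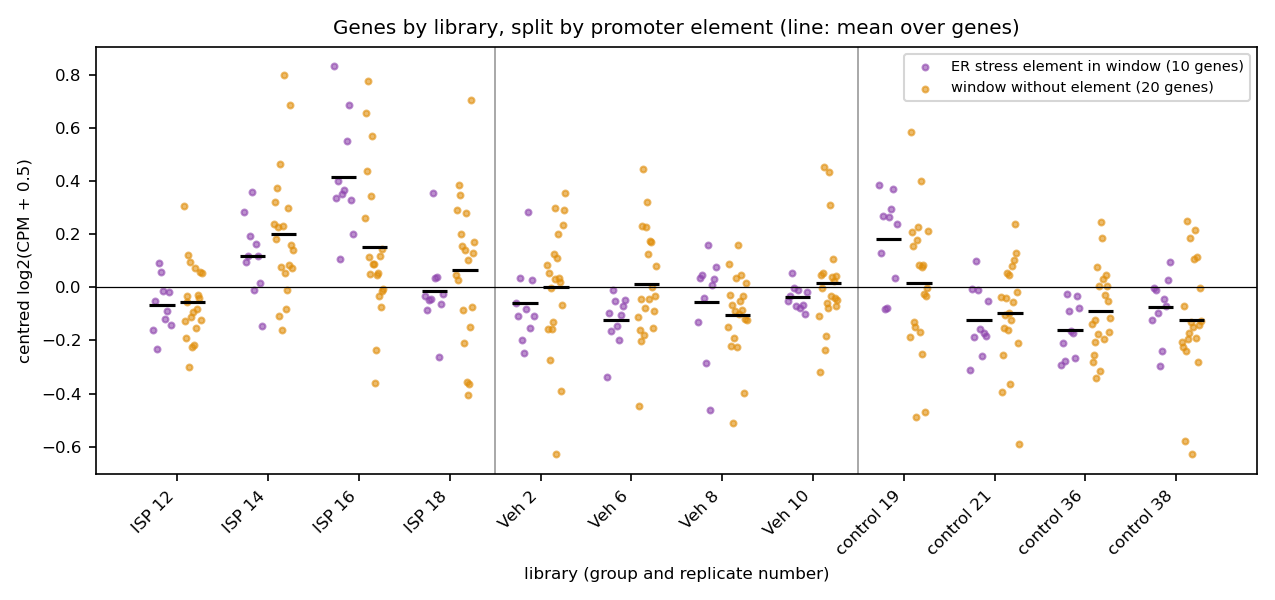
Centred log2(CPM + 0.5) in each library for the 10 genes with an ER stress element or second element in the promoter window (purple) and the 20 genes with a window and no element (orange), with the mean over genes as a line. The purple mean is 0.42 in ISP 16 and 0.18 in control 19, against orange means of 0.15 and 0.02, and lies between -0.16 and 0.12 in the other libraries. The orange mean is highest in ISP 14, at 0.20, where the purple mean is 0.12. Chaperones, co-chaperones or disulfide isomerases make up 8 of the 10 purple and 5 of the 20 orange genes. Among these the ISP 16 ratio had medians of 1.33 (purple) and 1.34 (orange).

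The comparison of ISP with Veh asks what the peptide changed after stroke. None of the 34 genes passed the test, although the chaperones and disulfide isomerases had higher means in ISP. All 15 chaperones, co-chaperones and disulfide isomerases had positive log2 fold changes, from 0.08 (Calr) to 0.58 (Pdia4), with a median of 0.24. Without ISP 16, 13 of the 15 were positive (all but Hyou1 and Calr), from -0.04 (Calr) to 0.43, with a median of 0.14. The median over the 34 genes was 0.14 on the log2 scale, against 0.02 over the 15214 genes tested, and 27 of the 34 (79.4%) were above 0, against 53.0% of all genes. Without ISP 16 the median over the 34 genes was 0.04. Glial markers had positive log2 fold changes too, though none was called. These were 7 of 8 for reactive astrocytes (median 1.86) and 9 of 10 for activated microglia and macrophages (median 2.29). All 6 homeostatic microglia markers (median 0.60) and all 8 oligodendrocyte markers (median 0.69) were positive. All 5 endothelial markers (median -0.21) and 5 of 6 inhibitory neuron markers (median -0.14) were negative. The part of these cell types in the values was not tested.

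No gene passed an adjusted p under 0.1 in this comparison by edgeR's quasi-likelihood test with Benjamini-Hochberg adjustment (0% of 15214), nor by limma-voom. At an unadjusted p under 0.05, 6 of the 34 genes were higher (17.6%, against 7.87% of all genes) and none was lower (against 7.47%). DESeq2, run on the same counts, called 2 of the 34 higher (Dnajc3 and Pdia4, against 0.929% of all genes) and none lower (against 1.09%), out of 402 genes in all.

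Dnajc3 (P58IPK, an Hspa5 co-chaperone; chr14:118937976-118981697, plus strand, GRCm38) had the smallest p of the 34. It measured 55.6, 68.6, 68.3 and 68.4 CPM in ISP 12, 14, 16 and 18, against 44.9, 51.6, 43.8 and 50.8 CPM in Veh 2, 6, 8 and 10. It was the 1 gene of the 34 whose ISP and Veh libraries did not overlap with ISP higher, a pattern that 2.80% of all genes had. Its log2 fold change was 0.45 ± 0.094 (SE), with an unadjusted p of 5.57e-04 and an adjusted p of 0.261 by edgeR, against an adjusted p of 0.0158 by DESeq2. Unlike Hspa5, Dnajc3 was at the same level in ISP 14, 16 and 18, and its log2 fold change was 0.43 without ISP 16.

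Pdia4 (a disulfide isomerase; chr6:47796141-47813430, minus strand) measured 33.4, 45.2, 59.9 and 45.6 CPM in ISP 12, 14, 16 and 18, against 28.7, 30.2, 29.8 and 34.7 CPM in Veh 2, 6, 8 and 10. ISP 12 lay within the Veh range and the other ISP libraries above it. It differed by a log2 fold change of 0.58 ± 0.15 (SE), with an adjusted p of 0.261 by edgeR and 0.0421 by DESeq2, and was 0.43 without ISP 16.

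Dnajb9 (ERdj4, a co-chaperone that also holds back Ern1) measured 46.6, 44.5, 45.2 and 38.8 CPM in ISP 12, 14, 16 and 18, against 39.9, 34.8, 33.8 and 34.9 CPM in Veh 2, 6, 8 and 10. ISP 18 lay below Veh 2, and the other ISP libraries lay above all Veh libraries. The log2 fold change was 0.29 ± 0.088 (SE), with an adjusted p of 0.263 by edgeR. Sdf2l1 measured 11.7, 16.2, 20.5 and 15.8 CPM in ISP 12, 14, 16 and 18, against 11.5, 9.28, 13.7 and 10.2 CPM in Veh 2, 6, 8 and 10. The groups overlapped through ISP 12 and Veh 8, and the log2 fold change was 0.53 ± 0.18 (SE), with an adjusted p of 0.271 by edgeR.

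Edem1, a mannosidase-like protein that directs misfolded glycoproteins to degradation, had a different library pattern. It measured 21.6, 36.1, 21.1 and 36.6 CPM in ISP 12, 14, 16 and 18, against 21.2, 19.96, 16.8 and 21.6 CPM in Veh 2, 6, 8 and 10. ISP 14 and ISP 18 were high and ISP 12 and ISP 16 lay near the highest Veh library, so that the ISP group split into pairs. ISP 14 and ISP 18 are also the ISP libraries in which the reactive astrocyte and activated microglia markers were high, and the part of those cells in the Edem1 values was not tested. The log2 fold change was 0.54 ± 0.19 (SE), with an adjusted p of 0.273 by edgeR, and it was 0.11 without ISP 14 and ISP 18.

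For Hspa5 the log2 fold change of ISP with Veh was 0.42 ± 0.18 (SE), with an adjusted p of 0.309 by edgeR, and it was 0.18 without ISP 16. Of its ISP libraries, ISP 12 lay within the Veh range of 195 to 238 CPM and ISP 18 just above it. Hsp90b1 had 0.13 ± 0.095 and Xbp1 0.26 ± 0.13 on the log2 scale, and Xbp1 had 0.11 without ISP 16.

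Among the 34 genes, Atf4, Ddit3 and their targets had log2 fold changes near or below 0 in ISP with Veh, apart from Trib3. None passed the test, and a wider list of integrated stress response genes is given below. Atf4 itself measured 157, 152, 181 and 147 CPM in ISP 12, 14, 16 and 18, against 174, 161, 174 and 163 CPM in Veh 2, 6, 8 and 10. The groups overlapped, and the log2 fold change was -0.08 ± 0.079 (SE). Ddit3 measured 23.6, 32.5, 29.4 and 30.5 CPM in ISP 12, 14, 16 and 18, against 34.1, 32.4, 23.6 and 26.1 CPM in Veh 2, 6, 8 and 10, with full overlap and a 95% interval of -0.30 to 0.30 for the log2 fold change. Of the 5 targets of Atf4 and Ddit3, Trib3 had a positive value (0.15 ± 0.54) and Chac1, Asns (asparagine synthetase), Ppp1r15a (GADD34, which brings a phosphatase to eIF2α) and Sesn2 had values from -0.31 to -0.08. The 3 stress sensors had log2 fold changes from 0.02 (Ern1) to 0.19 (Eif2ak3), and each of the 3 intervals included 0. Among the other genes of ER-associated degradation, Herpud1, Sel1l, Syvn1, Derl1, Derl2 and Os9 lay between -0.06 and 0.14, and Sec61b, a subunit of the translocon, was at 0.02.

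**Figure D4:**
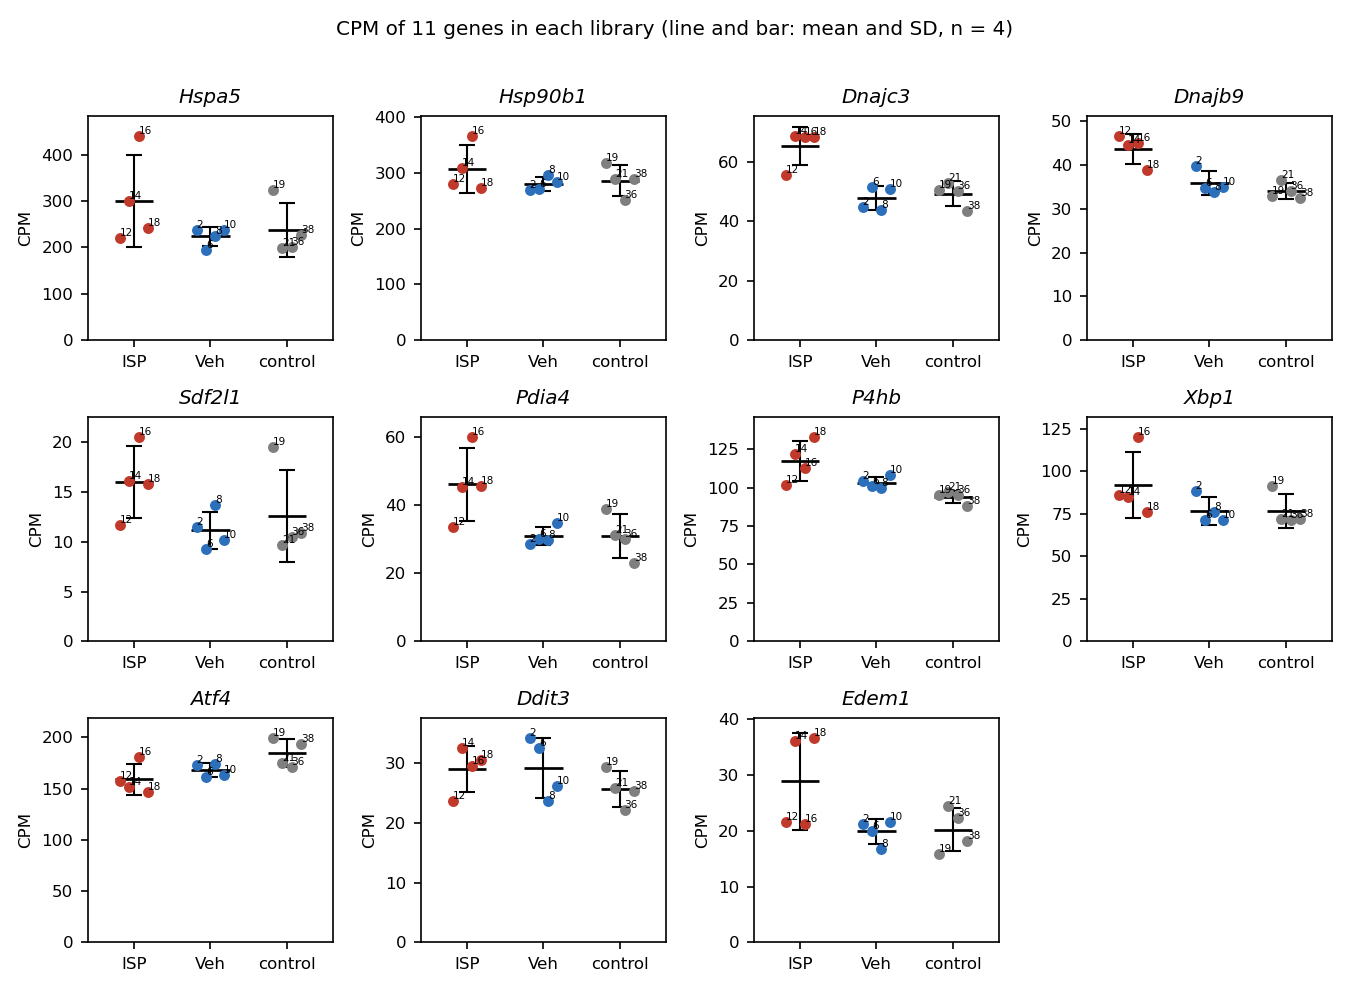
CPM of 11 genes in every library, with the replicate number beside each point, for ISP, Veh and control from left to right; lines and bars are the mean and SD of 4 libraries and the axes start at 0. Dnajc3 has no ISP library within the Veh range, Hspa5 reaches 440 CPM in ISP 16 alone, and Edem1 splits into 36.1 and 36.6 CPM in ISP 14 and ISP 18 against 21.6 and 21.1 CPM in ISP 12 and ISP 16.

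The comparison of ISP with control sets the peptide-treated stroke cortex beside libraries whose treatment the labels do not give. Genes for 2 co-chaperones and 2 disulfide isomerases rose. By edgeR's quasi-likelihood test at an adjusted p under 0.1, 4 of the 34 genes were called higher (11.8%, against 6.74% of 15232 genes) and none lower (against 3.42%). The 4 were Dnajc3, Dnajb9, P4hb and Pdia4. At an unadjusted p under 0.05, 6 were higher (17.6%, against 12.3% of all genes) and 1, Atf4, was lower (2.94%, against 10.0%). DESeq2 called 5 higher (14.7%, against 7.26% of all genes), the fifth being Edem1, and none lower (against 4.29%). The median log2 fold change of the 34 genes was 0.16, against -0.01 over all genes tested. It was 0.09 without ISP 16 and 0.24 without control 19, against -0.02 and -0.01 over all genes. With an offset for GC content and exon length it was 0.07, against -0.06 over all genes. All 15 chaperones, co-chaperones and disulfide isomerases were positive with all libraries (median 0.21), against 48.6% of all genes. Without ISP 16, 10 of the 15 were positive, with a median of 0.09. All 15 were positive without control 19 (median 0.32) and without both ISP 16 and control 19 (median 0.19). This comparison uses the same ISP libraries as that with Veh, so its values are not independent of those above. Glial markers were called higher too, 6 of 7 tested for reactive astrocytes, 5 of 7 for activated microglia and 6 of 8 for oligodendrocytes, and their part in the calls was not tested.

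Dnajc3 was 55.6 to 68.6 CPM in the ISP libraries, against 50.6, 52.9, 50.1 and 43.4 CPM in control 19, 21, 36 and 38. Its log2 fold change was 0.40 ± 0.097 (SE), with an adjusted p of 0.0396 by edgeR. Dnajb9 (chr12:44205559-44210326, minus strand) was 38.8 to 46.6 CPM in the ISP libraries, against 33.0, 36.7, 34.1 and 32.6 CPM in control 19, 21, 36 and 38. The fitted log2 fold change was 0.36 ± 0.087 (SE), with an adjusted p of 0.0403 by edgeR. For both genes every ISP library lay above every control library.

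P4hb (the founding protein disulfide isomerase, also the beta subunit of prolyl 4-hydroxylase; chr11:120560298-120573253, minus strand) measured 102, 122, 113 and 133 CPM in ISP 12, 14, 16 and 18, against 95.1, 96.9, 95.5 and 88.1 CPM in control 19, 21, 36 and 38. The groups did not overlap, and ISP 18 and ISP 14, not ISP 16, were highest. Its log2 fold change was 0.32 ± 0.089 (SE), with an adjusted p of 0.0611 by edgeR. Pdia4 was 33.4 to 59.9 CPM in the ISP libraries, against 38.8, 31.2, 30.1 and 23.1 CPM in control 19, 21, 36 and 38. Control 19 lay above ISP 12, and the log2 fold change was 0.58 ± 0.18 (SE), with an adjusted p of 0.0864 by edgeR.

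No overlap with ISP higher was seen for 4 of the 34 genes (11.8%, against 7.14% of all genes): the called genes Dnajc3, Dnajb9 and P4hb, and Derl1, a membrane protein of ER-associated degradation. Derl1 was 56.2 to 66.4 CPM in ISP, against 50.4 to 56.0 CPM in control, with a log2 fold change of 0.21 ± 0.085 (SE) and an adjusted p of 0.162 by edgeR. None of the 34 had no overlap with ISP lower, against 4.75% of all genes.

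The general chaperones did not pass. Hspa5 had a log2 fold change of 0.33 ± 0.21 (SE), with control 19 at 323 CPM above ISP 12, 14 and 18, and an adjusted p of 0.380 by edgeR. Hsp90b1 had 0.10 ± 0.10, Calr 0.11 ± 0.14 and Canx 0.11 ± 0.075 on the log2 scale. Xbp1 had 0.26 ± 0.14, with control 19 at 91.6 CPM above ISP 12, 14 and 18. Edem1 had 0.52 ± 0.20, with an adjusted p of 0.152 by edgeR, and measured 15.9, 24.4, 22.3 and 18.2 CPM in control 19, 21, 36 and 38.

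On the Atf4 side, Atf4 measured 199, 175, 171 and 193 CPM in control 19, 21, 36 and 38, so that ISP 12, 14 and 18 lay below all of them and ISP 16 between. This was a log2 fold change of -0.22 ± 0.087 (SE), with an adjusted p of 0.167 by edgeR. Ddit3 was 29.3, 25.8, 22.1 and 25.2 CPM in control 19, 21, 36 and 38, with overlap and a log2 fold change of 0.18 ± 0.12 (SE). Trib3 had the highest fold change of the 34, 0.74 on the log2 scale, but with an SE of 0.54 at levels under 1.5 CPM.

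The count of 4 depended on single libraries, and so did the count over all genes, which was 1026 higher of 15232 with all libraries. Of the 34 genes, 0 were higher without ISP 14 (299 of 15389 genes in all) and 0 without control 38 (338 of 15493). The count was 1 without ISP 18 (Dnajb9, 368 of 15346) and 1 without control 36 (Dnajc3, 495 of 15444). Without ISP 12 it was 6 (1123 of 15473). Without ISP 16 it was 4 (1465 of 15467), with Edem1 in place of Pdia4. Atf4 was then called lower, as were 818 genes in all. The count higher was 3 without control 19 (all but P4hb, 504 of 15437) and 3 without control 21 (all but Pdia4, 859 of 15454). Without both ISP 16 and control 19, an omission chosen after seeing the data, the same 4 genes were called as with all libraries (1198 of 15314 higher in all). With ISP 14 and ISP 18 left out no gene of the 34 was called, while 71 of 15497 genes were higher and 19 lower. With an offset for GC content and exon length 2 of the 34 were higher (Dnajc3 and Dnajb9) and Atf4 was lower. Over all genes the split of 1026 higher and 521 lower then became 985 higher and 934 lower.

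**Figure D5:**
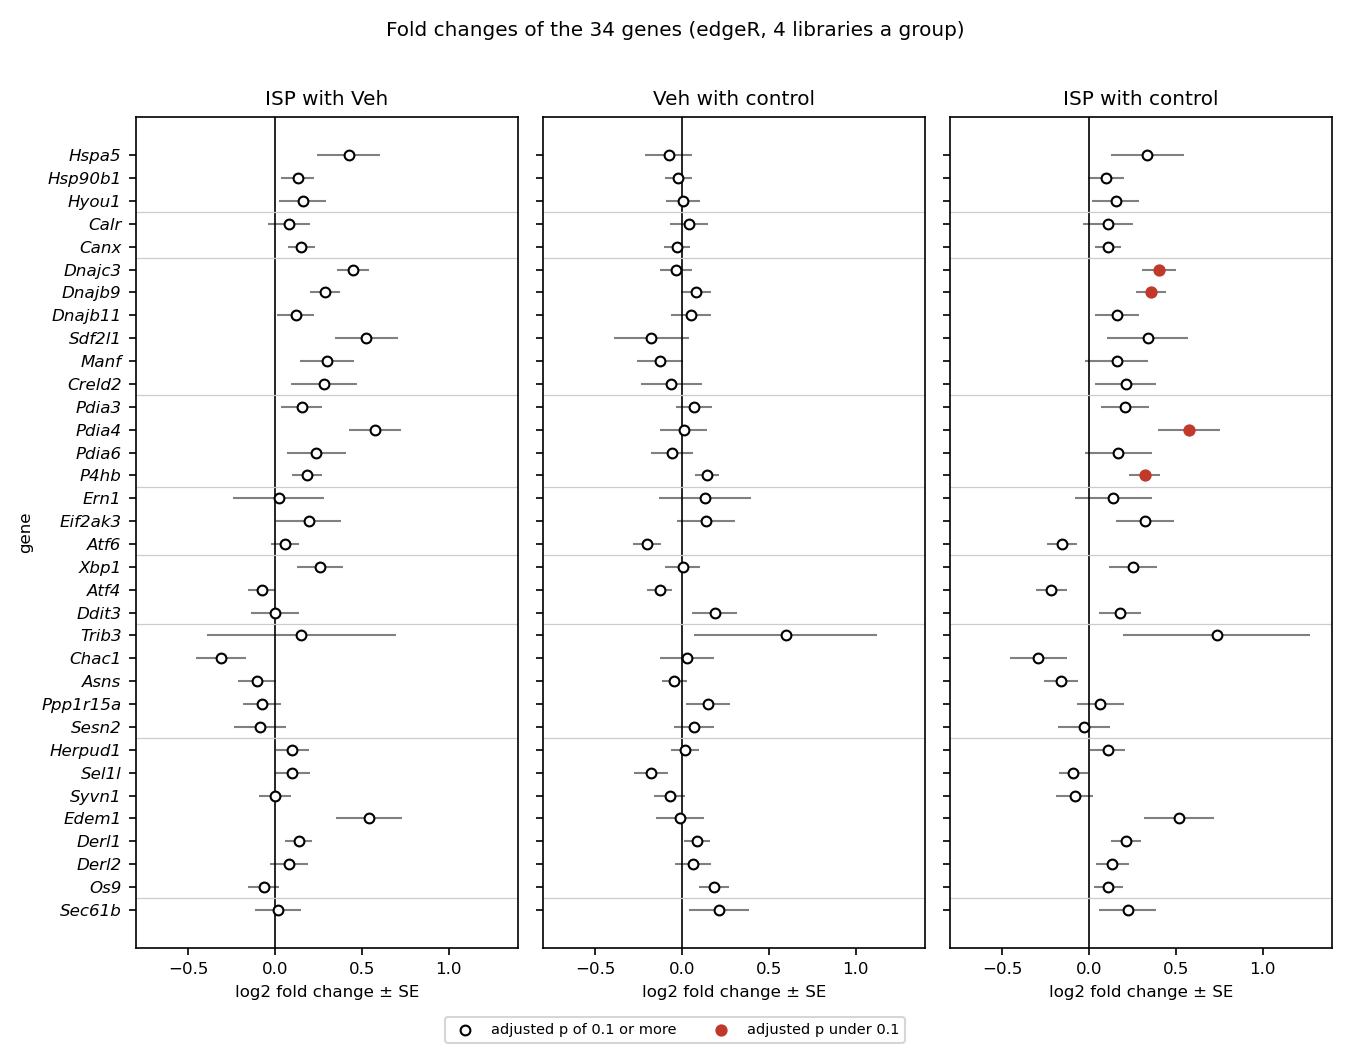
Log2 fold changes with SE bars of the 34 genes in ISP with Veh, Veh with control and ISP with control, from edgeR fits on 4 libraries a group; filled red points passed an adjusted p under 0.1. Dnajc3, Dnajb9, Pdia4 and P4hb are filled in ISP with control and no point is filled in the other comparisons.

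The comparison of Veh with control addresses stroke without the peptide, as far as the control label allows. With all libraries the 15 chaperones, co-chaperones and disulfide isomerases had log2 fold changes with a median of -0.02. Of these, 7 were above 0, against 54.3% of all genes. The 34 genes had a median of 0.01, against 0.02 over 15126 genes. These values depended on control 19. Without it, 13 of the 15 were above 0 (all but Canx and Dnajc3), with a median of 0.09. The median over the 34 genes was then 0.09, against 0.02 over all genes tested. None of the 34 passed an adjusted p under 0.1 by edgeR, against 2.23% of all genes, and limma-voom called none either. DESeq2 also called none of the 34, against 2.44% of all genes higher and 3.13% lower. At an unadjusted p under 0.05, 1 gene was higher (Os9; 2.94%, against 8.10% of all genes) and 1 lower (Atf6; 2.94%, against 8.24%).

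Atf6, the sensor that is cleaved into a transcription factor, was 104, 116, 116 and 102 CPM in Veh 2, 6, 8 and 10, against 118, 138, 136 and 117 CPM in control 19, 21, 36 and 38. It was the 1 gene of the 34 with every Veh library below every control library, as 5.39% of all genes were, although Veh 6 and control 38 differed by less than 1 CPM. Its log2 fold change was -0.20 ± 0.081 (SE), with an adjusted p of 0.232 by edgeR. P4hb was 104, 101, 99.5 and 108 CPM in Veh 2, 6, 8 and 10, above all 4 control libraries, as 4.28% of all genes were. The difference was a log2 fold change of 0.14 ± 0.067 (SE), with an adjusted p of 0.308 by edgeR. Hspa5 had -0.08 ± 0.14 and Hsp90b1 -0.02 ± 0.078, and Hspa5 had 0.10 without control 19.

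For some of these genes the 95% intervals bound the size of a difference between Veh and control. The interval of the log2 fold change was -0.19 to 0.15 for Hsp90b1, -0.15 to 0.19 for Herpud1 (a stress-inducible ER membrane protein of the degradation machinery) and -0.19 to 0.13 for Canx. It was wider for Hspa5, at -0.37 to 0.22, and for Trib3, at -0.54 to 1.74, where the depth is low.

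Calls among other genes of the same pathways are given beside the shares over all genes, 6.74% higher and 3.42% lower in ISP with control and 1.03% higher and 1.20% lower in Veh with control. Of 31 further ER folding enzymes and chaperones tested, 2 (6.45%) rose in ISP with control: Fkbp9, at 41.7 ± 7.64 CPM in ISP and 29.97 ± 1.83 CPM in control (SD, n = 4 each), and Fkbp10, a collagen chaperone, at 8.18 ± 3.70 CPM in ISP and 4.23 ± 0.478 CPM in control. In Veh with control Fkbp10 rose and Ero1l, an oxidase of the disulfide isomerases, fell to 30.2 ± 0.938 CPM in Veh, against 37.5 ± 1.37 CPM in control. Of 30 genes of the translocon, signal peptidase and oligosaccharyltransferase, 2 (6.67%) rose in ISP with control, Ssr3 and Spcs2, by 0.32 and 0.27 on the log2 scale. Of 18 further regulators of the unfolded protein response tested, 1 (5.56%) rose in ISP with control (Tmed10, a cargo receptor, by 0.33 on the log2 scale). No gene of these lists fell in ISP with control, and the shares that rose lay near that of all genes.

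In the wider integrated stress response list, of 32 genes tested, 5 (15.6%) rose in ISP with control and 2 (6.25%) in Veh with control, and none fell. In ISP with Veh, 6 of the 32 were higher at an unadjusted p under 0.05 by edgeR (against 7.87% of all genes). None was lower (against 7.47%). Log2 fold changes in that comparison were positive for 16 and negative for 16, with a median of 0.004. Atf3, a transcription factor induced by stress, was 1.24, 5.88, 0.72 and 6.51 CPM in ISP 12, 14, 16 and 18, 1.13, 1.93, 1.09 and 1.08 CPM in Veh 2, 6, 8 and 10, and 0.24, 0.043, 0.34 and 0.52 CPM in control 19, 21, 36 and 38. Its log2 fold change was 3.66 in ISP with control and 2.21 in Veh with control, and ISP 14 and ISP 18, with high glial markers, held the highest values. Phgdh and Psat1, enzymes of serine synthesis, rose by 0.50 each in ISP with control on the log2 scale, and Phgdh rose by 0.44 in Veh with control. Asns, the member of the 34 that is also an amino acid enzyme, was 117.6 ± 16.9 CPM in ISP, 126 ± 11.2 CPM in Veh and 131 ± 2.90 CPM in control libraries (SD, n = 4 each).

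Among chaperones outside the ER, 2 of 22 (9.09%) cytosolic heat shock chaperones rose in ISP with control, Cryab and Hspb8, by 0.43 and 0.93, and 1 fell in Veh with control, Chordc1, by 0.38. None of 12 mitochondrial chaperones and proteases passed in any of the 3 comparisons. In ISP with Veh no gene of any of these lists passed an adjusted p under 0.1 by edgeR, which holds for every gene in that comparison.

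Some of the 34 genes overlap annotated neighbours or have annotated copies, and reads shared with these were not measured. Ddit3 has more than 1 annotated gene of that symbol and overlaps Mars on the opposite strand, Hsp90b1 shares 10.3% of its exon bases with a pseudogene on the opposite strand and Eif2ak3 8.05% with another opposite-strand gene model, and Calr has an annotated pseudogene copy. No source used here says whether the library kit marked strand, so reads of opposite-strand partners cannot be told apart.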

How the data were processed

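Libraries were aligned by the authors with HISAT2 to mm10 and counted with HTSeq at default settings on GENCODE genes. Their versions are not given in the sources used here. Values deposited are whole-number counts per gene. Columns were assigned by their names, and directions follow the group labels of the columns. Genes and lists were chosen with earlier results of these data known. Low genes were removed with filterByExpr, TMM factors were computed, and each comparison was fitted on its own 8 libraries with edgeR 4.0.16 quasi-likelihood tests (R 4.3.3), with Benjamini-Hochberg adjustment over all genes tested and an adjusted p under 0.1 as the threshold. SE was the log2 fold change divided by the square root of F, and 95% intervals used the t quantile at the total degrees of freedom of each gene's test. CPM used TMM factors over 12 libraries. Centred values were log2(CPM + 0.5) minus the gene's mean. Values in every library are given for Hspa5, Hsp90b1, Xbp1, Atf4 and Ddit3, for each gene called in any comparison (up to 6 per direction) and for the 5 genes with the smallest p for ISP with Veh. Of each other list, up to 4 genes with the smallest p in a comparison were named. Values of Atf6 were added after they were seen. Exon lengths and positions came from GENCODE M21 (GRCm38), matched for 24373 symbols directly and 355 through RefSeq synonyms, and promoters from RefSeq. DESeq2 1.42.0, limma 3.58.1 with voom, other filters, size factors, an offset for GC content and exon length (loess span 0.3), a stricter threshold and left-out libraries were tried as alternatives, and the omission of both ISP 16 and control 19 and the summaries of 15 chaperones and isomerases without single libraries were added after seeing the data. The fitting code was tested on simulated data. No 2 libraries of a group agreed within sampling noise (chi-square per degree of freedom 10.7 to 48.4 over 18 pairs). Protein sequences were not used here. A list of further degradation genes is not reported here.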

Additional observations from a re-analysis of the deposited data

Results flagged for a closer look

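Within groups of 4 libraries, the highest or lowest level of a gene was set against its nearest neighbour, and its gap as a share of the group's range was compared with Dixon's 95% critical value for 4 values. Of 102 combinations of gene and group, 11 exceeded it (10.8%), against 5.31% of 44829 combinations over all genes tested in the 3 comparisons, and chance gives about 1 in 20. Among ISP libraries, Dnajc3 was low in ISP 12 at 55.6 CPM (nearest 68.3) and Dnajb11 was high in ISP 16 at 74.8 CPM (nearest 59.4). Among Veh libraries, Veh 6 was low for Calr at 389.8 CPM (nearest 449) and high for Eif2ak3 at 38.0 CPM (nearest 25.3) and Ppp1r15a at 16.7 CPM (nearest 15.2). Veh 2 was high for Asns at 143 CPM (nearest 122) and Derl2 at 26.1 CPM (nearest 21.0), and low for Sel1l at 135 CPM (nearest 173). Among control libraries, control 19 was high for Dnajb11 at 69.6 CPM (nearest 51.9), Sdf2l1 at 19.5 CPM (nearest 10.9) and Xbp1 at 91.6 CPM (nearest 72.2).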

How the results depend on the processing

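No paired analysis was possible because the groups share no replicate numbers. With 4 libraries a group, single libraries moved the counts of calls, and the causes were not tested. Over the fits without 1 library, genes called in all ranged from 0 to 72 for ISP with Veh, 0 to 461 for Veh with control and 420 to 2283 for ISP with control, and of the 34 genes 0 to 6 were higher and 0 to 1 lower in ISP with control. DESeq2 called 402 genes for ISP with Veh, 2 of the 34 among them (Dnajc3 and Pdia4, both higher), and 1109 for Veh with control. Veh with control gave 510 without a filter on low counts, 28 with all 12 libraries in 1 fit and 18 at an adjusted p under 0.05. For ISP with control, an adjusted p under 0.05 left 691 genes, 2 of the 34 among them, and leaving out ISP 14 and ISP 18 left 90 genes and 0 of the 34. With an offset for GC content and length, 2 of the 34 were higher and 1 (Atf4) was lower in ISP with control, and 1 (Atf4) was lower in Veh with control.

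Of 561 alternative values of the genes given in every library, 28 had the other sign, 25 lost the call and 8 gained one. Values with the other sign ran from about -0.11 to 0.11 on the log2 scale and were not called. For ISP with Veh, Ddit3 was 0.066 with limma-voom and -0.091 to 0.085 without 1 library, and Atf4 was 0.0096 without ISP 14 and ISP 18. For Veh with control, Xbp1 was -0.0015 with DESeq2 size factors, -0.0017 with DESeq2, -0.0027 with 12 libraries in 1 fit, -0.11 with the GC and length offset and -0.073 to 0.096 without 1 library. Hsp90b1 was 0.017 with limma-voom, 0.0070 with the offset and -0.079 to 0.024 without 1 library. With the offset, Dnajc3 was 0.0021, Pdia4 -0.051 and Edem1 0.0197. Without 1 library, Dnajc3 ranged from -0.10 to 0.0053, Pdia4 from -0.11 to 0.14, Edem1 from -0.12 to 0.083, Hspa5 from -0.16 to 0.10 and Sdf2l1 from -0.29 to 0.11. For ISP with control, Hsp90b1 ranged from -0.0028 to 0.15.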
